A study of Mus musculus with 18 samples.

Results

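The eukaryotic translation initiation factors were followed across mouse macrophages exposed to talc, titanium dioxide and estradiol. Members were chosen by gene symbol, namely all symbols of the array's annotation that begin with Eif and a digit from 1 to 6, without the Eif4ebp genes and pseudogenes. This gave 55 of 23102 measured genes, with 781 probe sets. No measured value entered that rule, but the family was picked for study with talc results of these same arrays already known, so its talc counts are descriptions and not independent evidence. Of the 55 genes, 50 encode initiation factors or their regulators. The other 5 stand in the annotation under the former Eif2c symbols of the Argonaute genes, which act in RNA silencing, and they are described apart. Eif1, the main gene of the factor eIF1, was not analysed here.

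Total RNA came from J774, an established mouse macrophage line grown without phenol red, after 24 h of exposure in 24-well plates. The groups were talc plus estradiol, titanium dioxide (TiO2) plus estradiol, talc, TiO2, estradiol and vehicle, with 3 arrays in each. Particles were given at 10 µg per well and estradiol at 2 µg/mL. Whether the replicate arrays stem from independent cultures is not in the labels, so the p-values reflect the spread among the arrays given, which may be technical. The array numbering follows the groups one after another, so numbering and group cannot be told apart.

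A gene's level is its log2 intensity, averaged over probe sets, and a difference of 1 on this scale is 2-fold. Levels of different genes are not compared, since each probe set binds with its own strength. Array medians ran from 45.6 to 48.0 intensity units, the median level of all genes was 4.73, and 47 of the 50 factors lay above it. The exceptions were Eif2s3y, Eif4e1b and Eif5a2. The 8 macrophage markers stood between percentiles 67.9 and 99.9 of all genes, and the measured markers of fibroblasts, epithelium, lymphocytes and granulocytes at percentile 57.5 or lower. In RNA from a whole culture, more cells with a transcript and more of it per cell cannot be told apart.

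Initiation loads the small ribosomal subunit with initiator tRNA and brings it to the capped end of a messenger RNA. eIF1, eIF1A, eIF3 and eIF5 assemble on the subunit, eIF2 carries the initiator tRNA, and eIF4E, eIF4G and eIF4A recognise the cap and unwind the leader. eIF2 is recharged by its exchange factor eIF2B, and kinases that sense stress block this step by phosphorylating eIF2 alpha. In macrophages this control is known to set how much cytokine protein is made from existing messenger RNA.

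In the promoters of these genes, motifs of 3 transcription factor classes known to bind growth and stress genes were searched. The windows are RefSeq's (GRCm38.p6), 250 bases before to 50 after a start, and 41 of the 50 factors had at least 1. The E-box CACGTG, a site of the Myc class, was found on either strand in 10 of the 41, or 24.4%, against 9.21% of 17713 measured genes. The ETS core CCGGAAG was found in 15 of the 41, or 36.6%, against 12.9% of genes. The stress element TGATGNAAN, bound by ATF4 class factors, was found in 1 of the 41, or 2.44%, against 3.81% of genes. Factors had 1.32 windows per gene and all genes 1.21. The shares among genes above the median level, where most factors lie, were not computed. Whether the factors differ from such genes in these motifs was therefore not tested. Among 10 matched factors that passed the test with talc, described next, 2 held the E-box and 4 the ETS core, against 8 and 11 of the 31 that did not pass. The passing factors had 1.6 windows per gene and the others 1.23, so more sequence was searched per passing factor and these counts are not like for like. The matches of those passing factors are shown, since their expression is what the results turn on. Only matches that lie with their flanking bases before the start are printed, while the counts cover the whole window. Each line is 5′ to 3′ on the gene's strand with the match in capitals, and CTTCCGG is CCGGAAG read on the other strand. No matches overlapped. The E-box lines are from Eif4e (chr3:138527028-138527057 and chr3:138527192-138527221, plus strand) and Eif5a (chr11:69920791-69920820 and chr11:69921443-69921472, minus strand).
Eif4e first E-box: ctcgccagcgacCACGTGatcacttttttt
Eif4e second E-box: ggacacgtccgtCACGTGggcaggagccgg
Eif5a first E-box: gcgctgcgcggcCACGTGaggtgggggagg
Eif5a second E-box: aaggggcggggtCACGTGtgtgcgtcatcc
The ETS lines are from Eif3c (chr7:126566382-126566411 and chr7:126566416-126566445), Eif3d (chr15:77970876-77970905), Eif3g (chr9:20898616-20898645) and Eif5a (chr11:69920667-69920696), all on the minus strand.
Eif3c first ETS core: aaccttttcctCTTCCGGcgtcgtgcctgt
Eif3c second ETS core: attctttggtgCTTCCGGgaagtgacgccc
Eif3d ETS core: gctgtgacacaCTTCCGGttgtgtctcact
Eif3g ETS core: cggccgcggcaCCGGAAGcctcttctactc
Eif5a ETS core: cagccgtagcaCCGGAAGtgttccccattg

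Talc against vehicle asks what the particle changed in cells without estradiol. Of the 50 factors, 11 rose and 0 fell at an adjusted p under 0.05, or 22% and 0%. Over all genes 3.94% rose and 4.52% fell, and among the genes above the median level, where most factors lie, 7.16% rose and 8.64% fell. The factors that rose were Eif1a, Eif2b3, Eif2b5, Eif2s1, Eif3b, Eif3d, Eif3g, Eif4a3, Eif4e, Eif5 and Eif6. The median difference of the 50 was 0.13 log2 units, against 0.02 over all genes and 0.01 for genes above the median level. Above 0 were 36 of the 50, 12312 of all 23102 genes and 5877 of the 11551 above the median level. Over all 55 members by symbol the count was 11 up and 1 down, the gene that fell being Ago1 of the Argonautes.

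Talc plus estradiol against estradiol repeats the question in cells that received the hormone. Here 7 factors rose and 0 fell, or 14% and 0%, against 4.13% and 3.0% of all genes and 7.79% and 5.47% of those above the median level. They were Eif1a, Eif3b, Eif3c, Eif3d, Eif3g, Eif5a and Eif6. The median difference was 0.19 log2 units, against -0.0 over all genes and 0.02 for genes above the median level. Above 0 were 39 of the 50, 11411 of all 23102 genes and 6202 of the 11551 above the median level. Between the arms 5 factors were shared, namely Eif1a, Eif3b, Eif3d, Eif3g and Eif6, and 2.33% of all genes rose in both. Across the 50 factors the differences in the arms, which share no array, had a Pearson r of 0.74 and a Spearman rho of 0.75. The points share the normalization of their arrays, so these are descriptions.

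Some cell type markers moved in the same comparisons. Of the 8 macrophage markers 2 fell with talc against vehicle, or 25%, against 4.52% of all genes and 8.64% of those above the median level. They were Adgre1 (6.17 with talc, against 6.97 with vehicle) and the integrin Itgam (10.62 with talc, against 11.18 with vehicle). With talc plus estradiol against estradiol Itgam fell (10.83 with talc plus estradiol, against 11.20 with estradiol) and Cd14, a receptor for bacterial lipopolysaccharide, rose (12.15 with talc plus estradiol, against 11.78 with estradiol). This is 12.5% each way, against 3.0% of all genes lower and 4.13% higher. Among genes above the median level 5.47% were lower and 7.79% higher. Of the 17 measured markers of other cell types 0 rose and 1 fell in each arm, Pdgfra, at 4.55 with talc, against 5.21 with vehicle, and at 4.42 with talc plus estradiol, against 5.31 with estradiol. The part of these shifts in the differences of the factors was not tested.

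**Figure D1:**
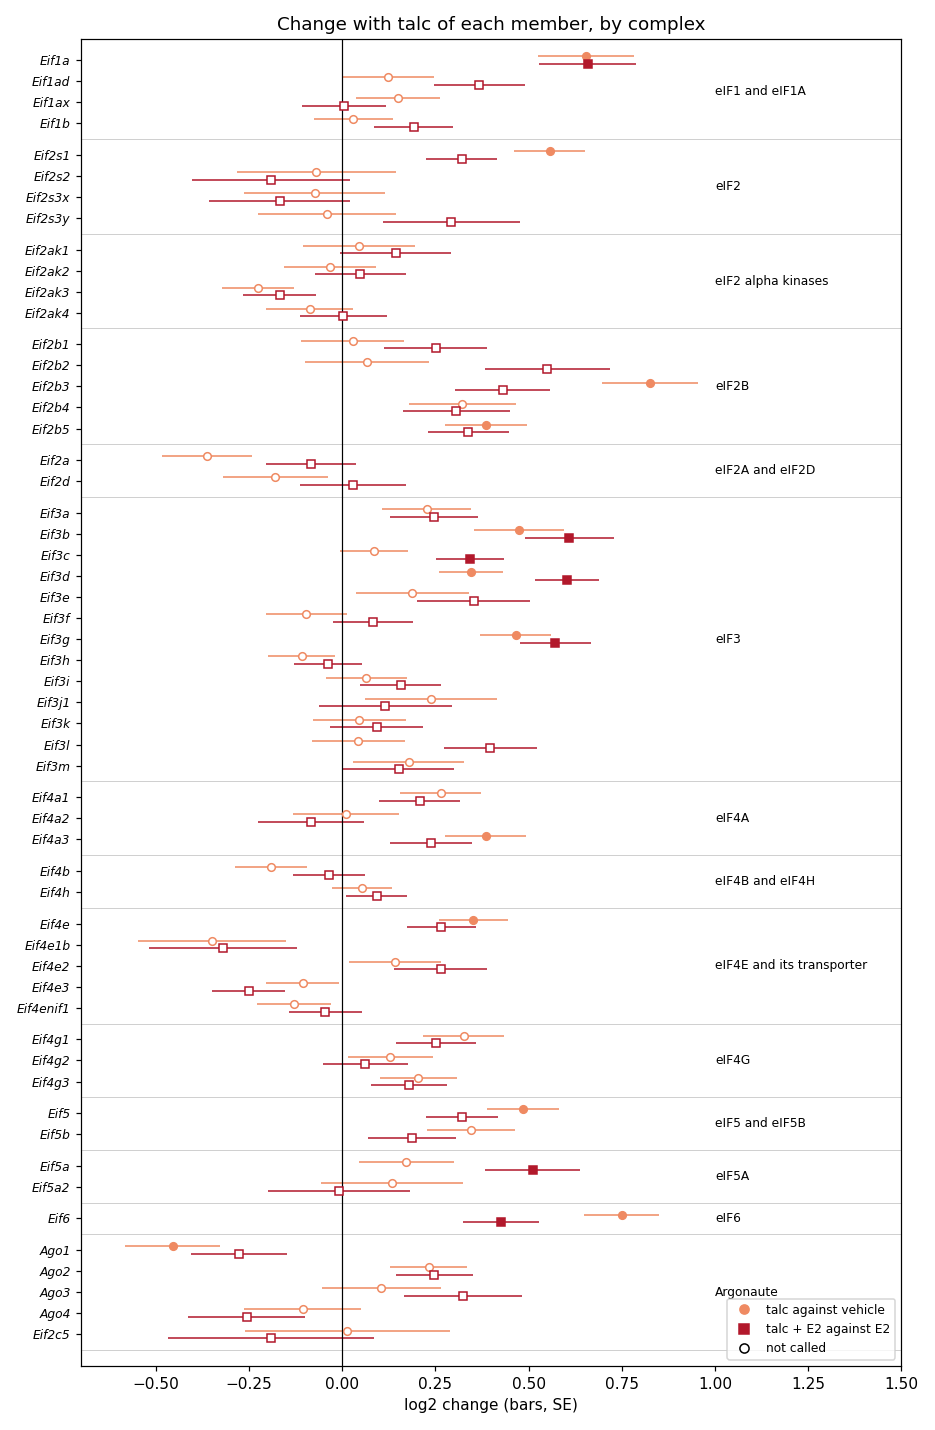
Difference with talc for each of the 55 members, in log2 units on the horizontal axis, with circles for talc against vehicle, squares for talc plus estradiol (E2) against estradiol, filled symbols for members that passed the test and bars of 1 standard error. The filled symbols lie to the right of 0 apart from Ago1, and the eIF3 block holds 3 filled circles and 4 filled squares.

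Eif1a was higher with talc in both arms. It encodes eIF1A, a factor that holds the scanning ribosome in its open form. Its levels were 8.68, 8.34 and 8.49 with talc, against 7.86, 7.79 and 7.90 with vehicle. With estradiol present they were 8.40, 8.34 and 8.25 with talc plus estradiol, against 7.75, 7.58 and 7.69 with estradiol. The 6 talc arrays lay above all other arrays of their arm, with differences of 0.65 ± 0.13 (SE, adjusted p = 0.0035) and 0.66 ± 0.13 log2 units (adjusted p = 0.0045). Its paralog on the X chromosome, Eif1ax, did not pass, with 10.01, 9.82 and 9.93 with talc, against 9.74, 9.74 and 9.83 with vehicle. With talc plus estradiol Eif1ax read 9.81, 9.88 and 9.73, against 9.89, 9.62 and 9.90 with estradiol, so the groups overlapped. The differences for Eif1ax were 0.15 ± 0.11 and 0.00 ± 0.11, and the difference between the paralogs was not tested. Eif1b, a close copy of eIF1, differed by 0.03 ± 0.11 and 0.19 ± 0.11. Eif1ad, whose protein carries an eIF1A domain, differed by 0.12 ± 0.12 and 0.37 ± 0.12, and neither passed.

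eIF3, a scaffold of 13 measured subunits that recruits the small subunit to messenger RNA, is the largest complex of the family. With talc against vehicle 3 of the 13 rose, or 23.1%, near the 22% of all factors, and 11 were above 0. With talc plus estradiol against estradiol 4 rose, or 30.8%, against 14% of all factors, and 12 were above 0. The 13 subunits are themselves part of those factors. In these comparisons 3.94% and 4.13% of all genes rose, and 7.16% and 7.79% of genes above the median level. Whether eIF3 differs from the other factors was not tested. Eif3b, a core subunit, read 9.84, 9.86 and 10.03 with talc, against 9.22, 9.47 and 9.62 with vehicle. It read 9.92, 9.91 and 10.03 with talc plus estradiol, against 9.21, 9.32 and 9.51 with estradiol. The groups did not overlap in either arm, and the differences were 0.47 ± 0.12 (adjusted p = 0.019) and 0.61 ± 0.12 (adjusted p = 0.0046). Without vehicle replicate 1, the lowest of its group for this gene, the difference against vehicle was 0.37 and no longer passed, nor did it without talc replicate 3, at 0.41.

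Eif3d, a subunit known to bind the cap of selected messenger RNAs, read 10.29, 10.22 and 10.31 with talc, against 9.84, 9.95 and 9.99 with vehicle. In the estradiol arm it read 10.38, 10.30 and 10.41 with talc plus estradiol, against 9.77, 9.73 and 9.78 with estradiol. All talc arrays were higher, by 0.34 ± 0.09 (adjusted p = 0.016) and by 0.60 ± 0.09 (adjusted p = 0.00031). The first of these did not pass without talc replicate 1 or 3 or without vehicle replicate 1, at 0.34, 0.33 and 0.30. Eif3g, an RNA-binding subunit, read 9.75, 9.65 and 9.65 with talc, against 9.16, 9.14 and 9.35 with vehicle. It read 9.74, 9.77 and 9.78 with talc plus estradiol, against 9.19, 9.14 and 9.25 with estradiol. Its talc groups again stood apart, with differences of 0.46 ± 0.10 (adjusted p = 0.0048) and 0.57 ± 0.10 (adjusted p = 0.0013), and all 10 probe sets of Eif3g were higher with talc in both arms.

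Eif3c, the fourth eIF3 subunit to rise in the estradiol arm, read 11.30, 11.40 and 11.35 with talc plus estradiol, against 11.03, 10.92 and 11.07 with estradiol. Without estradiol it read 11.37, 11.28 and 11.29 with talc, against 11.16, 11.22 and 11.30 with vehicle, and these groups overlapped. The differences were 0.34 ± 0.09 (adjusted p = 0.029) and 0.09 ± 0.09 (adjusted p = 0.70), and the difference between them was 0.26 ± 0.13 (adjusted p = 0.80). Eif3c also differed by -0.22 ± 0.09 for estradiol against vehicle (adjusted p = 0.99). All 20 probe sets of Eif3c were higher in the estradiol arm, though the brightest alone differed by 0.11. Without any 1 of the 3 talc plus estradiol arrays, or without estradiol replicate 1 or 2, the difference of Eif3c lay between 0.30 and 0.37 and did not pass. The promoters of Eif3c, Eif3d and Eif3g hold the ETS core printed above. Those of Eif3l and Eif3m, which did not pass, also hold it before the start, and later matches were not listed by gene.

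The other 9 eIF3 subunits did not pass in either arm. Eif3a, the largest subunit, differed by 0.23 ± 0.12 and 0.25 ± 0.12, and its talc arrays stood above their controls in both arms. Eif3e differed by 0.19 ± 0.15 and 0.35 ± 0.15, Eif3l by 0.04 ± 0.13 and 0.40 ± 0.13, Eif3m by 0.18 ± 0.15 and 0.15 ± 0.15. Eif3f, Eif3h, Eif3i, Eif3j1 and Eif3k lay between -0.11 and 0.24, and Eif3h, a peripheral subunit, was below 0 in both arms, at -0.11 ± 0.09 and -0.04 ± 0.09.

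**Figure D2:**
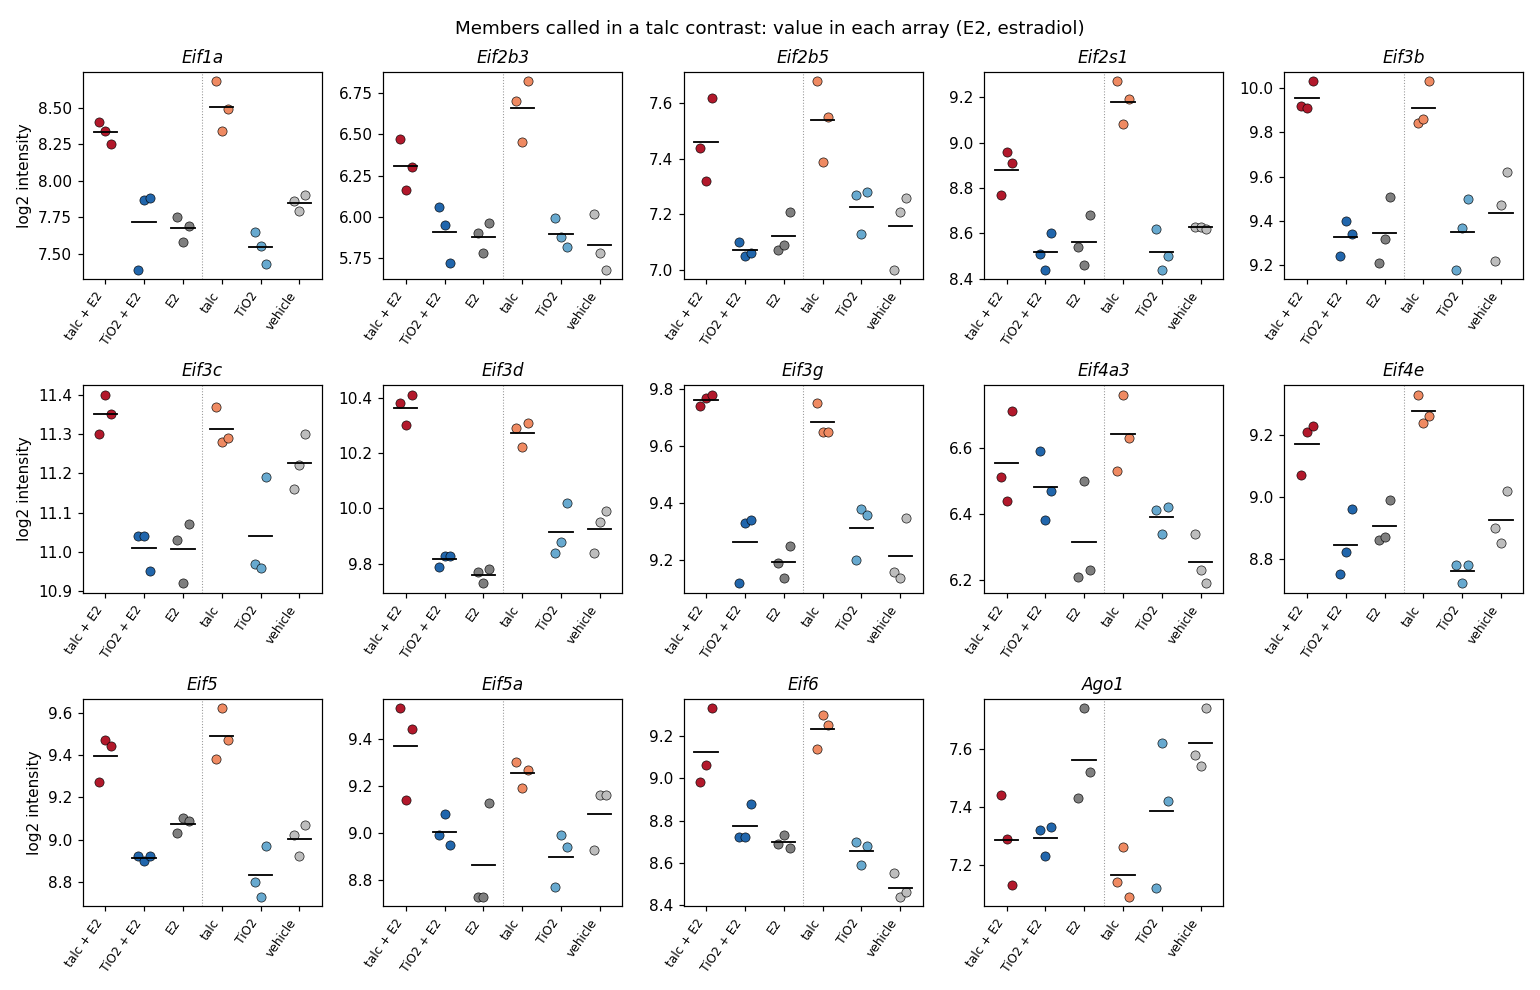
Log2 intensity in each of the 18 arrays for the 13 factors and Ago1 that passed in either talc comparison with its control, with 1 point per array and a line at the group mean, and the estradiol (E2) arm left of the dotted line. For Eif1a, Eif3b, Eif3d and Eif3g the talc points of each arm lie above every other point of that arm, and Ago1 is the reverse without estradiol against vehicle.

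Of the eIF2 subunits, which carry the initiator tRNA, the alpha subunit gene alone passed. Eif2s1, the target of the stress kinases, read 9.27, 9.08 and 9.19 with talc, against 8.63, 8.63 and 8.62 with vehicle. In the estradiol arm Eif2s1 read 8.77, 8.96 and 8.91 with talc plus estradiol, against 8.54, 8.46 and 8.68 with estradiol. Talc groups were higher without overlap in both arms, with differences of 0.56 ± 0.10 (adjusted p = 0.0012) and 0.32 ± 0.10 (adjusted p = 0.054). The beta subunit Eif2s2 differed by -0.07 ± 0.21 and -0.19 ± 0.21. The gamma subunit Eif2s3x, measured by 1 probe set, differed by -0.07 ± 0.19 and -0.17 ± 0.19. Probe sets that these 2 genes share with other symbols entered no gene value, and none passed over probe sets. The 2 of Eif2s3x differed by 0.53 ± 0.24 and 0.39 ± 0.37 without estradiol, and by 0.18 ± 0.24 and -0.20 ± 0.37 with it. The 2 of Eif2s2 differed by 0.08 ± 0.22 and -0.25 ± 0.47 without estradiol, and by 0.62 ± 0.22 and -0.10 ± 0.47 with it. Eif2s3y, its Y-linked copy, was among the dim genes, at group means between 3.11 and 3.50.

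eIF2B, which recharges eIF2 with GTP, had all 5 subunit genes above 0 in both arms. Eif2b3, the gamma subunit, had the largest difference of any factor with talc against vehicle. It read 6.70, 6.45 and 6.82 with talc, against 6.02, 5.78 and 5.68 with vehicle. It read 6.47, 6.16 and 6.30 with talc plus estradiol, against 5.90, 5.78 and 5.96 with estradiol. Both arms were separate, with differences of 0.83 ± 0.13 (adjusted p = 0.00050) and 0.43 ± 0.13 (adjusted p = 0.053). Of its 20 probe sets 18 were higher with talc than with vehicle, and 15 with talc plus estradiol than with estradiol.

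The catalytic epsilon subunit Eif2b5 read 7.68, 7.39 and 7.55 with talc, against 7.0, 7.21 and 7.26 with vehicle. With estradiol it read 7.44, 7.32 and 7.62 with talc plus estradiol, against 7.07, 7.09 and 7.21 with estradiol. The groups did not overlap, and the differences were 0.39 ± 0.11 (adjusted p = 0.034) and 0.34 ± 0.11 (adjusted p = 0.073). Without talc replicate 1 or 3, or without vehicle replicate 1 or 2, the first lay between 0.31 and 0.41 and did not pass. The alpha, beta and delta subunits did not pass, with 0.03 ± 0.14 and 0.25 ± 0.14 for Eif2b1, 0.07 ± 0.17 and 0.55 ± 0.17 for Eif2b2, and 0.32 ± 0.14 and 0.31 ± 0.14 for Eif2b4.

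None of the 4 kinases of eIF2 alpha passed against control. Eif2ak3, the endoplasmic reticulum stress kinase PERK, read 7.82, 7.88 and 7.72 with talc, against 8.04, 7.90 and 8.15 with vehicle. It read 7.98, 7.85 and 7.82 with talc plus estradiol, against 8.14, 7.99 and 8.03 with estradiol. The talc arrays were the lower ones in both arms, with differences of -0.23 ± 0.10 (adjusted p = 0.19) and -0.17 ± 0.10 (adjusted p = 0.38). Eif2ak1, the heme-sensing kinase HRI, differed by 0.05 ± 0.15 and 0.14 ± 0.15. Eif2ak2, the double-stranded RNA sensor PKR, differed by -0.03 ± 0.12 and 0.05 ± 0.12. Eif2ak4, the amino acid sensor GCN2, differed by -0.09 ± 0.12 and 0.00 ± 0.12. Eif2a and Eif2d, which can deliver initiator tRNA by other routes, did not pass either, at -0.36 ± 0.12 (adjusted p = 0.079) and -0.08 ± 0.12 for Eif2a and at -0.18 ± 0.14 and 0.03 ± 0.14 for Eif2d.

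At the cap, Eif4e passed without estradiol. It encodes the cap-binding protein and holds the pair of E-boxes printed above. Its levels were 9.33, 9.24 and 9.26 with talc, against 8.90, 8.85 and 9.02 with vehicle. They were 9.07, 9.21 and 9.23 with talc plus estradiol, against 8.86, 8.87 and 8.99 with estradiol. No array of a talc group lay within its control group, and the differences were 0.35 ± 0.09 (adjusted p = 0.023) and 0.27 ± 0.09 (adjusted p = 0.098). Without talc replicate 1 or 3, or vehicle replicate 1 or 2, the first lay between 0.31 and 0.36 and did not pass.

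The relatives of Eif4e did not pass. Eif4e2, a cap-binding protein known as a translational repressor, read 8.10, 7.78 and 7.89 with talc, against 7.88, 7.90 and 7.56 with vehicle. It read 8.09, 8.03 and 8.24 with talc plus estradiol, against 7.81, 7.72 and 8.03 with estradiol. Those groups overlapped or touched, and the differences were 0.14 ± 0.12 and 0.26 ± 0.12 (adjusted p = 0.26). Eif4e3, another cap-binding relative, read 8.27, 8.12 and 8.23 with talc, against 8.32, 8.35 and 8.27 with vehicle. It read 8.05, 8.13 and 7.99 with talc plus estradiol, against 8.23, 8.35 and 8.34 with estradiol. The talc group of Eif4e3 overlapped vehicle at 8.27 and lay below estradiol without overlap, with differences of -0.11 ± 0.10 and -0.25 ± 0.10 (adjusted p = 0.15). Eif4e1b, the oocyte form, was dim here and read 3.32, 3.92 and 3.19 with talc, against 3.93, 3.73 and 3.83 with vehicle. It read 3.49, 3.55 and 3.07 with talc plus estradiol, against 3.77, 3.66 and 3.64 with estradiol. The transporter Eif4enif1, which carries eIF4E to the nucleus and to RNA granules, differed by -0.13 ± 0.10 and -0.05 ± 0.10.

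Among the helicases, Eif4a3, a core part of the exon junction complex rather than of cap recognition, passed without estradiol. It read 6.53, 6.76 and 6.63 with talc, against 6.34, 6.23 and 6.19 with vehicle. It read 6.51, 6.44 and 6.71 with talc plus estradiol, against 6.21, 6.50 and 6.23 with estradiol. The groups were apart without estradiol (0.39 ± 0.11, adjusted p = 0.036) and overlapped with it (0.24 ± 0.11, adjusted p = 0.24). Without talc replicate 2 or 3, or without any 1 of the vehicle arrays, the first lay between 0.33 and 0.43 and did not pass.

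Eif4a1, the main cap helicase, read 10.33, 10.14 and 10.38 with talc, against 9.90, 9.99 and 10.16 with vehicle. It read 10.25, 10.22 and 10.28 with talc plus estradiol, against 10.08, 9.99 and 10.05 with estradiol. Its differences of 0.26 ± 0.11 (adjusted p = 0.17) and 0.21 ± 0.11 (adjusted p = 0.32) did not pass. Eif4a2, its close paralog, read 8.37, 8.18 and 8.13 with talc, against 8.24, 8.29 and 8.13 with vehicle. It read 8.08, 8.27 and 8.16 with talc plus estradiol, against 8.33, 8.16 and 8.26 with estradiol, so its groups overlapped, at 0.01 ± 0.14 and -0.08 ± 0.14. The helicase partners did not pass, at -0.19 ± 0.10 and -0.04 ± 0.10 for Eif4b and at 0.05 ± 0.08 and 0.09 ± 0.08 for Eif4h.

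The eIF4G scaffolds were above 0 in both arms and none passed against control. Eif4g1 differed by 0.33 ± 0.11 (adjusted p = 0.077) and 0.25 ± 0.11 (adjusted p = 0.21), with its talc arrays above their controls in both arms. Eif4g3, its paralog, differed by 0.20 ± 0.10 and 0.18 ± 0.10, and Eif4g2, which lacks the eIF4E site, by 0.13 ± 0.11 and 0.06 ± 0.11.

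Factors of start codon choice and subunit joining gave further members that passed. Eif5, which makes eIF2 hydrolyse its GTP at the start codon, read 9.38, 9.62 and 9.47 with talc, against 9.02, 8.92 and 9.07 with vehicle. It read 9.27, 9.47 and 9.44 with talc plus estradiol, against 9.03, 9.10 and 9.09 with estradiol. Talc arrays were higher throughout, by 0.48 ± 0.10 (adjusted p = 0.0037) and 0.32 ± 0.10 (adjusted p = 0.054). Eif5b, the GTPase that joins the subunits, differed by 0.35 ± 0.12 (adjusted p = 0.086) and 0.19 ± 0.12 (adjusted p = 0.43).

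Eif6, whose protein keeps the large subunit from joining too early, had the smallest p of the family against vehicle. It read 9.14, 9.30 and 9.25 with talc, against 8.55, 8.44 and 8.46 with vehicle. It read 8.98, 9.06 and 9.33 with talc plus estradiol, against 8.69, 8.73 and 8.67 with estradiol. The groups were far apart, by 0.75 ± 0.10 (adjusted p = 0.00014) and 0.43 ± 0.10 (adjusted p = 0.015). The second did not pass without estradiol replicate 1, at 0.42, or without talc plus estradiol replicate 3, at 0.32. All 11 probe sets of Eif6 were higher with talc than with vehicle. A single probe set with a difference of 2.5 pulled the mean of Eif6 up, while the other 10 lay between 0.43 and 0.70. In the estradiol arm 8 of the 11 were higher, and the other 3, that probe set among them, lay at -0.64, -0.28 and -0.14.

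Eif5a encodes eIF5A, which helps peptide bond formation at difficult sequences and carries the modified residue hypusine. It read 9.53, 9.14 and 9.44 with talc plus estradiol, against 8.73, 8.73 and 9.13 with estradiol. Without estradiol it read 9.30, 9.19 and 9.27 with talc, against 8.93, 9.16 and 9.16 with vehicle. The talc arrays were higher in both arms, though in each by a narrow gap between single arrays. The differences were 0.51 ± 0.13 with estradiol (adjusted p = 0.020) and 0.17 ± 0.13 without it (adjusted p = 0.53). In the estradiol arm 1 of its 12 probe sets differed by 2.65, and the median over its probe sets gave 0.44, which did not pass. Without talc plus estradiol replicate 1 or 3, or estradiol replicate 1 or 2, the gene's difference lay between 0.43 and 0.48 and did not pass. Eif5a2, its paralog, was dim, with 3.55, 4.13 and 3.45 with talc, against 3.78, 3.50 and 3.45 with vehicle. It had 3.31, 3.62 and 3.44 with talc plus estradiol, against 3.76, 3.46 and 3.17 with estradiol.

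**Figure D3:**
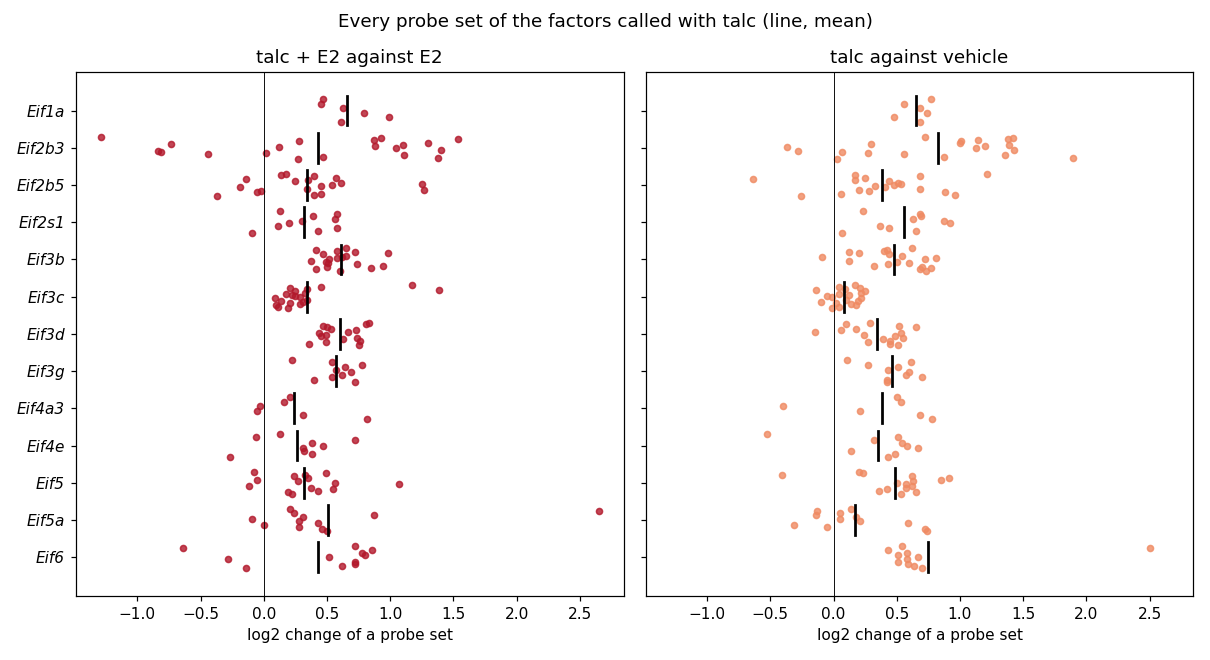
Log2 difference of every single-symbol probe set of the 13 factors that passed, with talc plus estradiol against estradiol on the left, talc against vehicle on the right, 1 point per probe set and a line at the gene's mean. The points of Eif3g lie above 0 in both panels, and single points of Eif5a at 2.65 and of Eif6 at 2.5 stand apart from their gene's other points.

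The talc difference of no factor depended on estradiol past the threshold. The interaction of talc with estradiol, tested with limma, passed for 0 of 50 factors and for 0% of all genes, and 3 factors, or 6%, had an unadjusted p under 0.05, against 6.32% of all genes. These were Eif6 at -0.32 ± 0.14, Eif2b3 at -0.40 ± 0.18 and Eif3d at 0.26 ± 0.12. The value of Eif6 includes the probe set that differed by 2.5 without estradiol and by -0.64 with it. The adjusted p of these 3 factors lay between 0.76 and 0.78, and for the 14 members in the plot of values by array between 0.76 and 1. A factor that passed in 1 arm only is therefore not shown to differ between the arms.

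**Figure D4:**
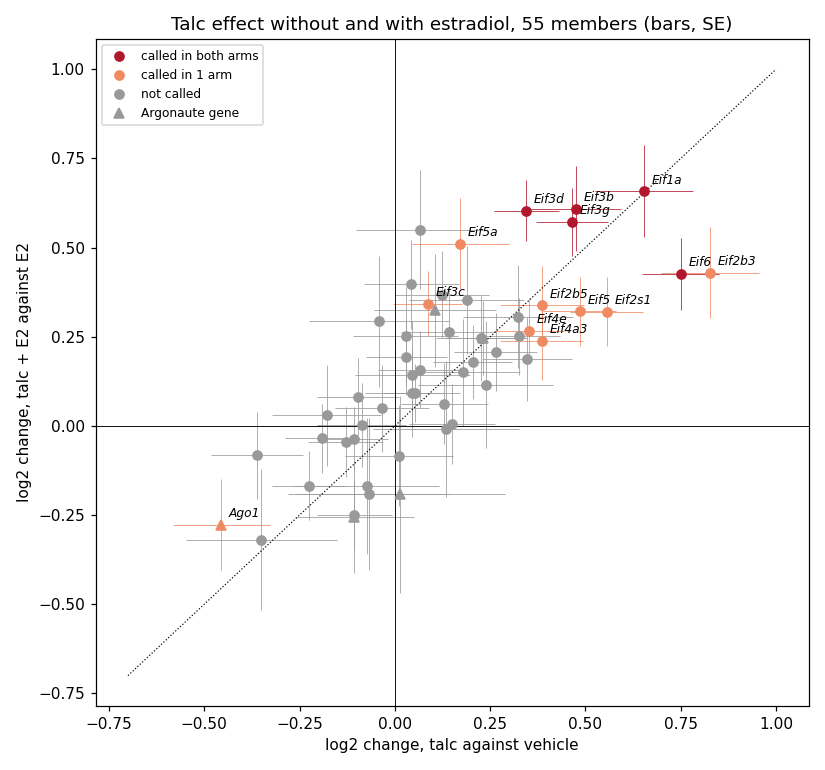
Talc difference of each of the 55 members with estradiol (vertical axis) against the same without it (horizontal axis), in log2 units, with bars of 1 standard error and the dotted line marking equal differences. Eif1a, Eif3b, Eif3d, Eif3g and Eif6 passed in both arms and lie in the upper right quadrant, as do the 8 other factors that passed in 1 arm.

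By complete separation of arrays, 14 factors, or 28%, were higher with talc in both arms, against 7% of all genes and 13.6% of those above the median level. They were the 5 shared factors with Eif2b3, Eif2b5, Eif2s1, Eif3a, Eif3m, Eif4e, Eif4g1, Eif5 and Eif5a. Some gaps were narrow. The lowest talc plus estradiol and the highest estradiol array read 7.92 and 7.90 for Eif3m, and 9.14 and 9.13 for Eif5a. The mean over the 50 factors was between 8.36 and 8.41 in the 6 talc arrays and between 8.14 and 8.28 in the 12 others. Not all of the family moved this way, as 9 factors were below 0 in both arms, none of them past the threshold. These were Eif2a, Eif2ak3, Eif2s2, Eif2s3x, Eif3h, Eif4b, Eif4e1b, Eif4e3 and Eif4enif1.

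TiO2, a particle given at the same dose by mass, changed no factor past the threshold. With limma 0 of 50 passed for TiO2 against vehicle, where 0% of all genes did, and 2 had an unadjusted p under 0.05. For TiO2 plus estradiol against estradiol 0 passed, where 0.00433% of all genes did, and 4 had an unadjusted p under 0.05. Eif1a read 7.65, 7.55 and 7.43 with TiO2, against 7.86, 7.79 and 7.90 with vehicle. Its difference of -0.31 ± 0.13 (adjusted p = 0.55) did not pass and ran opposite to that with talc. In the estradiol arm Eif1a was not lower, with means of 7.72 with TiO2 plus estradiol and 7.67 with estradiol. The 95% intervals of the TiO2 differences lay within 2-fold for all 50 factors in both arms. They lay within 0.5 log2 units for 43 factors without estradiol and for 38 with it. The interaction of TiO2 with estradiol passed for 0 factors and 0% of all genes, with 2 factors at an unadjusted p under 0.05.

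Estradiol likewise left the factors within the spread of the test. Against vehicle 0 of 50 passed with 0% of all genes, and 2 had an unadjusted p under 0.05, namely Eif3c at -0.22 ± 0.09 and Eif6 at 0.21 ± 0.10. For talc plus estradiol against talc 0 passed with 0% of all genes, and 4 had an unadjusted p under 0.05. For TiO2 plus estradiol against TiO2 0 passed with 0.00866% of all genes, and 5 had an unadjusted p under 0.05. The 95% intervals lay within 2-fold for all 50 factors in these 3 comparisons, and within 0.5 log2 units for 44, 39 and 41 of them in the same order. For TiO2 plus estradiol against vehicle 0 passed with 0% of all genes, and 6 had an unadjusted p under 0.05. In contrast, talc plus estradiol against vehicle had 7 factors up and 0 down, against 3.39% and 3.22% of all genes, namely Eif1a, Eif2b3, Eif3b, Eif3d, Eif3g, Eif5 and Eif6.

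Set against TiO2 in place of vehicle, talc again had more of these factors higher. For talc against TiO2 12 rose and 1 fell, or 24% and 2%, against 4.61% and 5.35% of all genes and 8.08% and 10.2% of those above the median level. Those that had not passed against vehicle were Eif3a (0.46 ± 0.12), Eif4g2 (0.38 ± 0.11) and Eif5b (0.56 ± 0.12). Each of these differences leaned in part on a low TiO2 replicate 2. The TiO2 arrays read 10.19, 9.86 and 10.39 for Eif3a, 10.26, 9.95 and 10.34 for Eif4g2, and 8.59, 8.22 and 8.70 for Eif5b. In turn, Eif2b5 and Eif4a3 had passed against vehicle and did not pass against TiO2. The factor that fell was the kinase Eif2ak3 (-0.34 ± 0.10, adjusted p = 0.035). The TiO2 arrays of Eif2ak3 read 8.11, 8.08 and 8.23, above the talc values given earlier without overlap. Eif1a differed by 0.97 ± 0.13 (adjusted p = 0.00014), or 1.95-fold. The comparison shares its talc arrays with that against vehicle.

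For talc plus estradiol against TiO2 plus estradiol 14 rose and 0 fell, or 28% and 0%, against 6.66% and 2.87% of all genes and 12.9% and 4.17% of those above the median level. They were Eif1a, Eif2ak1, Eif2b4, Eif2b5, Eif2s1, Eif3b, Eif3c, Eif3d, Eif3g, Eif4e, Eif4g1, Eif5, Eif5b and Eif6. Array brightness moved with this comparison, with upper quartiles of intensity between 242.6 and 245.8 with talc plus estradiol, against 222.2 to 233.5 with TiO2 plus estradiol. With the median of the brighter genes subtracted from each array, 7 of the 55 members passed, and the median of the factors was 0.15, against -0.06 for genes above the median level, where it had been 0.29 against 0.08. Eif2ak1 read 8.27, 8.18 and 8.27 with talc plus estradiol, against 7.84, 8.01 and 7.29 with TiO2 plus estradiol, so its difference of 0.53 ± 0.15 leaned on a low TiO2 plus estradiol replicate 3. Eif1a, Eif3b, Eif3d, Eif3g and Eif6 passed in all 4 comparisons of talc with a control or with TiO2.

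**Figure D5:**
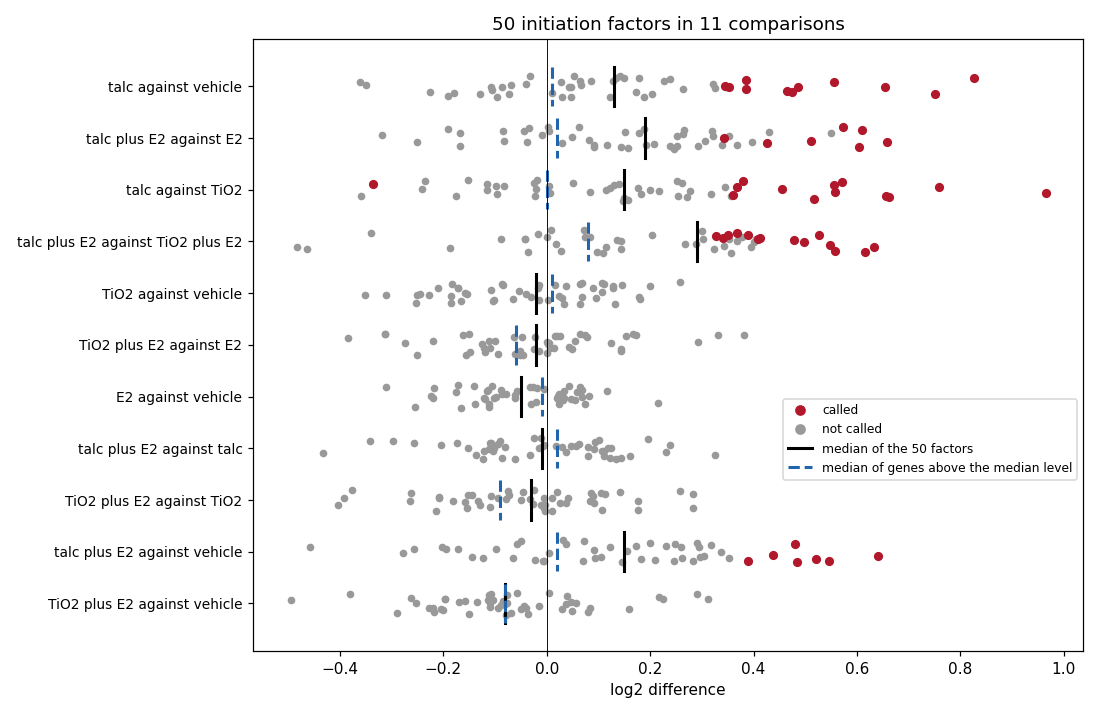
Log2 differences of the 50 factors, 1 point each, in 11 comparisons (E2, estradiol), with factors that passed in red, the median of the factors as a solid line and the median of genes above the median level as a dashed line. Red points appear in the 5 rows with talc over a group without talc, and none in the rows of TiO2 or of estradiol.

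The Argonaute genes, which load small RNAs that silence messenger RNA, were not uniform. Ago1 read 7.14, 7.26 and 7.09 with talc, against 7.58, 7.54 and 7.74 with vehicle. It read 7.44, 7.29 and 7.13 with talc plus estradiol, against 7.43, 7.74 and 7.52 with estradiol. Ago1 fell by 0.46 ± 0.13 without estradiol (adjusted p = 0.034), with no overlap, and its difference of -0.28 ± 0.13 with estradiol did not pass (adjusted p = 0.25). The first did not pass without talc replicate 1 or 3 or without any 1 of the vehicle arrays, between -0.50 and -0.39. Ago2, the member able to cut its target, read 10.12, 10.22 and 10.10 with talc, against 9.84, 9.93 and 9.98 with vehicle. It read 10.12, 10.10 and 10.14 with talc plus estradiol, against 10.0, 9.92 and 9.70 with estradiol. The talc arrays of Ago2 were higher without overlap in both arms, by 0.23 ± 0.10 (adjusted p = 0.22) and 0.25 ± 0.10 (adjusted p = 0.19), which did not pass. Against TiO2 it passed, at 0.36 ± 0.10 without and 0.40 ± 0.10 with estradiol. Ago3 read 6.82, 7.01 and 6.84 with talc, against 6.67, 6.81 and 6.89 with vehicle. It read 6.86, 7.06 and 7.22 with talc plus estradiol, against 7.15, 6.58 and 6.44 with estradiol. Its groups overlapped in both arms, with differences above 0 that did not pass (0.11 ± 0.16 and 0.32 ± 0.16). Ago4 read 5.95, 5.56 and 5.47 with talc, against 5.87, 5.52 and 5.91 with vehicle. It read 5.63, 5.32 and 5.90 with talc plus estradiol, against 5.84, 5.98 and 5.80 with estradiol. These groups overlapped too, with differences below 0 that did not pass (-0.11 ± 0.16 and -0.26 ± 0.16). Eif2c5, which RefSeq lists as a long noncoding RNA, was dim, at group means from 3.53 with talc plus estradiol to 4.0 with TiO2.

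Around the family, the helpers of scanning, cap binding and ribosome recycling were counted as a list of 24 genes. With talc against vehicle 3 rose and 1 fell, or 12.5% and 4.17%, against 3.94% and 4.52% of all genes. With talc plus estradiol against estradiol 6 rose and 0 fell, or 25% and 0%, against 4.13% and 3.0% of all genes. Among genes above the median level 7.16% and 7.79% rose in these comparisons. Abce1, the ATPase that splits finished ribosomes, averaged 11.09 with talc, against 10.47 with vehicle (0.61 ± 0.09, adjusted p = 0.00033), and it rose with estradiol too (0.41 ± 0.09, adjusted p = 0.010). Dhx29, a helicase for structured leaders, averaged 7.13 with talc, against 6.50 with vehicle (0.63 ± 0.11), and rose by 0.51 ± 0.11 with estradiol. Ncbp1, the larger nuclear cap-binding protein, rose by 0.47 ± 0.10 and 0.42 ± 0.10. Paip2b, which represses the poly(A)-binding protein, averaged 5.30 with talc, against 5.82 with vehicle, and fell by 0.52 ± 0.12.

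Both enzymes that make the hypusine of eIF5A rose in the arm where Eif5a did. Dhps averaged 7.48 with talc plus estradiol, against 6.73 with estradiol (0.76 ± 0.15, adjusted p = 0.0053). Dohh averaged 6.33 with talc plus estradiol, against 5.86 with estradiol (0.47 ± 0.12, adjusted p = 0.018). Neither passed without estradiol, and the interaction with estradiol passed for no gene. A link between these rises and that of Eif5a was not tested.

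Of 12 elongation and termination factors, 3 rose and 1 fell with talc against vehicle, and 3 rose and 0 fell with talc plus estradiol against estradiol. Those that rose were 25% in each arm, against 3.94% and 4.13% of all genes and 7.16% and 7.79% of genes above the median level. The 1 that fell was 8.33%, against 4.52% of all genes and 8.64% of genes above the median level. Eef1e1, a part of the complex of tRNA synthetases, averaged 10.34 with talc, against 9.59 with vehicle (0.74 ± 0.11, adjusted p = 0.00025). It averaged 10.23 with talc plus estradiol, against 9.49 with estradiol (0.73 ± 0.11). Etf1, the release factor eRF1, rose by 0.44 ± 0.13 and Eef1b2, an exchange factor of eEF1A, by 0.40 ± 0.12 without estradiol, while Eef2k, the kinase that inhibits elongation, fell by 0.41 ± 0.11. With estradiol Eef1g, an eEF1 subunit, rose by 0.40 ± 0.10 and the ribosome rescue factor Pelo by 0.46 ± 0.12.

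Of 19 other genes of translation control (eIF4E-binding proteins, kinases, phosphatases and the mTOR pathway) 1 rose and 0 fell in each arm. This is 5.26%, near the 3.94% and 4.13% of all genes and below the 7.16% and 7.79% of genes above the median level. That gene was Ppp1r15a, which directs a phosphatase to eIF2 alpha. It averaged 7.86 with talc, against 6.74 with vehicle (1.12 ± 0.11, adjusted p = 1.4e-05), and 7.85 with talc plus estradiol, against 6.66 with estradiol (1.19 ± 0.11, adjusted p = 1.6e-05). Eif4ebp1, which sequesters eIF4E when unphosphorylated, averaged 9.77 with talc, against 10.07 with vehicle, and did not pass (-0.30 ± 0.09, adjusted p = 0.052).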

How the data were processed

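The deposited values are linear intensities of probe sets on 18 Affymetrix arrays and run from 1.458 to 17256. RMA is named in the submitters' processing notes, and its version and summary level are not given in the sources used here. Log2 was taken here. Probe sets (269751) were named through the platform annotation, with 2247 symbols updated through RefSeq synonyms, of which 233753 carried a single symbol, 5106 several and 30892 none. The mean log2 intensity of its single-symbol probe sets gave each of 23102 genes its value, so exons that move apart are averaged. A single limma model, with 1 coefficient for each of the 6 groups, covered all genes and arrays (limma 3.58.1, R 4.3.3), with 12 residual and 4.57 prior degrees of freedom and a median standard error of 0.151 log2 units for 2 groups. The number of arrays limits the precision. Adjusted p-values are Benjamini-Hochberg over all genes of a comparison, two-sided, and a gene passed under 0.05. The labels pair no arrays, and replicates were numbered in accession order.

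The members and the gene lists were chosen with earlier results of these data known. Values in every array are given for members that passed in either comparison of talc with its control and for their paralogs, and up to 4 leading genes of each list are named per comparison. Eif2ak1, Eif2ak3, Eif4ebp1 and the array values of Eif1a, Eif3a, Eif4g2 and Eif5b with TiO2 were singled out after their values were seen. The fit was tested on simulated data. Alternatives were a filter on dim genes, other summaries of probe sets, each probe set alone, quantile and median scaling, a trended robust prior, array weights, a model restricted to the groups compared, and omission of each array in turn. Subtraction of the brighter genes' median, and the count without Argonaute genes, were added after the data were seen.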

Additional observations from a re-analysis of the deposited data

Results flagged for a closer look

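A probe set that carries the symbols of Eif3j and the predicted gene Gm9781 entered no gene value, since it has several symbols. Its signal was higher with talc than with vehicle by 0.81 log2 units (SE 0.17, adjusted p = 0.033 over probe sets, limma). It differed by 0.99 for talc against TiO2 and by 0.86 for talc plus estradiol against TiO2 plus estradiol, and by 0.55 for talc plus estradiol against estradiol (adjusted p = 0.18). The gene value of Eif3j1, from 3 other probe sets, differed by 0.24 and 0.12 in the comparisons with control.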

How the results depend on the processing

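Counts below are of the 55 members. For talc against vehicle (12) they were 6 with only the arrays compared, 27 when probe sets were tested singly, and 6 to 13 without 1 array, the lowest without talc replicate 3 or vehicle replicate 1. For talc plus estradiol against estradiol (7) they were 15 among genes above the median level, with a trended robust prior or with array weights, 13 with array medians subtracted or each probe set on its own, 4 with the brightest probe set, and 4 to 10 without 1 array, the lowest without talc plus estradiol replicate 3. For talc against TiO2 (14) they were 9 with the brightest probe set, 8 with the median over probe sets, 7 with only the arrays compared, 27 with each probe set, and 8 to 14 without 1 array (9 without talc replicate 1, 8 without talc replicate 3). For talc plus estradiol against TiO2 plus estradiol (15) they were 24 among genes above the median level, 8 with the brightest probe set or the median over probe sets, 7 after quantile normalization or subtraction of the brighter genes' median, 23 with array medians subtracted and 3 with only the arrays compared. Without 1 array they were 5 to 17, with 5 without talc plus estradiol replicate 3 and 6 without TiO2 plus estradiol replicate 2. For talc plus estradiol against vehicle (7) they were 13 among genes above the median level, 3 with only the arrays compared, and 3 to 7 without 1 array, with 3 without talc plus estradiol replicate 3 and 4 without vehicle replicate 1 or 2. A fit of only the arrays compared has fewer arrays behind its spread; the cause of the other shifts was not tested. The other 8 comparisons gave 0 under each alternative. Of the single gene differences no direction turned. Of those printed for talc against control the threshold was kept in 308 fits without 1 array and lost in 34. Those fits include omission of arrays outside the comparison, which leaves the difference itself unchanged, so the kept count overstates stability. No threshold was lost without a TiO2 or a TiO2 plus estradiol array, so all 34 losses came with arrays of the other groups. Under other settings the threshold was kept in 146 and lost in 25. Eif1a, Eif2b3, Eif2s1 and Eif3g against vehicle, and Eif3b and Eif3g in the estradiol arm, passed in all 27 settings. After quantile normalization the median of the factors was 0.15 in the estradiol arm and 0.12 against vehicle. No paired analysis was possible because the labels give no replicate numbers that pair the groups.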
